A study of Mus musculus with 66 samples.

Results

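Potassium channels are the membrane proteins that set the resting potential of a neuron, shape its action potentials and brake its firing. The Kcn genes were taken as every row of the deposited table whose symbol starts with Kcn followed by a letter, which gave 98 of 24138 rows. They comprised 40 pore subunits of voltage-gated channels, 12 auxiliary subunits of those channels, 15 inward rectifiers and 14 two-pore channels. A further 12 (Kcnma, Kcnmb, Kcnn, Kcnt and Kcnu symbols) are called calcium- or sodium-activated below. Symbol alone placed genes in this class, Kcnu1 among them, whatever opens each channel. The other 5 transcripts were 4 antisense or overlapping RNAs and Kcnrg, a regulator of channel assembly. Gene expression was measured by RNA-seq in punches of the nucleus accumbens (NAcc, labelled ventral striatum) of male C57BL/6 mice of 3 to 5 months. WT mice were compared with iMSN-D2RKO mice, in which floxed D2R alleles were removed by a Cre driven by the D1R promoter, so that the dopamine D2 receptor was lost from indirect-pathway medium spiny neurons (iMSNs) but not from every striatal cell. Each genotype received 1 injection of saline or of cocaine (20 mg/kg) at ZT3, 3 h after lights on, and tissue was taken at ZT7, ZT11, ZT15, ZT19 and ZT23, and the ZT3 libraries, labelled saline/cocaine, served both treatments. With 3 libraries in each of 22 groups there were 66 libraries.

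In medium spiny neurons, inward rectifiers hold the cell at a strongly negative resting potential, and fast inactivating (A-type) channels delay the first spike when the cell is driven. A-type channels of the dendrite are built from Kcnd pore subunits, to which Kcnip proteins (calcium-binding subunits) and Dpp6 or Dpp10 (transmembrane subunits) attach. The calcium-activated and sodium-activated channels follow a burst of spikes, and the two-pore channels carry leak current. Kcnd1 encodes one of the 3 Kcnd pore subunits. The study chose it from genes that it had found rhythmic in WT mice after cocaine in these same samples, so a rhythm of Kcnd1 in that series is not independent evidence.

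The genotype label was compared with Drd2, the targeted gene. Drd2 FPKM (an expression level corrected for gene length and library size) averaged 140 in WT mice at ZT3 and after saline and 149 in iMSN-D2RKO mice. The ranges were 99.6 to 279 and 78.0 to 375, and the medians, 126.5 and 106.7, lay in the other order. The log2 difference of iMSN-D2RKO minus WT was -0.02 (SE 0.17, adjusted p = 0.98 by limma). The whole-gene value therefore did not separate the genotypes, and since the deletion removes 1 part of the gene it does not check the labels. Of the 66 libraries, 13 stood apart on the leading component of the variation between replicates, a component that accounted for 43.56% of it. They numbered 6 WT and 7 iMSN-D2RKO libraries, 12 of them taken at ZT15, ZT19 or ZT23 and 1 at ZT7 after cocaine in iMSN-D2RKO mice, and each result below was also computed without them. Summed choroid plexus markers were highest in 3 libraries, 1 of which was among the 13. They were also raised in iMSN-D2RKO saline ZT15 replicate 1 (246 FPKM) and iMSN-D2RKO ZT3 replicate 3 (176 FPKM). The median outside the 3 was 9.28 FPKM. The summed FPKM of all genes ran from 364078 in WT cocaine ZT15 replicate 3 to 690048 in iMSN-D2RKO saline ZT7 replicate 1. Sequencing depth was unknown, so precision rests on the 3 replicates. Nothing in the labels says that the replicates were separate animals, and p-values measure the spread between these libraries. In tissue, fewer cells of a type and less RNA per cell cannot be told apart.

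The 250 bases before a transcript start of 3 Kcn genes are shown because these had the smallest p-values for time of day among the genes of mean FPKM of at least 1. All are RefSeq sequences on GRCm38.p6, printed 5' to 3' on the strand of the gene. For Kcna4 the transcript start is the first base of the RefSeq gene span, while for Kcnh4 and Kcnh1 it lies 337 and 1633 bases inside the span, so that their windows overlap the gene. Capitals mark the E-box CACGTG, to which CLOCK and BMAL1 can bind, or the nuclear receptor core motif AGGTCA and its complement TGACCT.
Kcnh4 (chr11:100759779-100760028, minus strand): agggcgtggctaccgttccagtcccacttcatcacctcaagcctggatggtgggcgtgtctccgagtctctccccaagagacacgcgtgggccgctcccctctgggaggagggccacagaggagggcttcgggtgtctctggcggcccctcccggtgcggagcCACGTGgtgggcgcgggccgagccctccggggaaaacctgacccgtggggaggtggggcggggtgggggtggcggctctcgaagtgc
Kcnh1 (chr1:192190527-192190776, plus strand): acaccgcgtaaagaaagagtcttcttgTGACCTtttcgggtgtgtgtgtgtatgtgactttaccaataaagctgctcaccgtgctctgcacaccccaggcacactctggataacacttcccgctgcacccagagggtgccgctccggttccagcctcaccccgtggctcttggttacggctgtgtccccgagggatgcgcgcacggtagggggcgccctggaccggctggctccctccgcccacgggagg
Kcna4 (chr2:107290339-107290588, plus strand): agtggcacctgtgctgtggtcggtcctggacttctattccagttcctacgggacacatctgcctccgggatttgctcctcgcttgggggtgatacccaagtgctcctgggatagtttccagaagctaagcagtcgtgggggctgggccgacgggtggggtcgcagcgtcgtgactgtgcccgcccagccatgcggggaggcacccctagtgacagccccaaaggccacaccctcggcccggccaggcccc
The window of Kcnh4 held an E-box that started 87 bases before this transcript start, and that of Kcnh1 held the core motif at position -223 from its own, both of them inside the gene span. The window of Kcna4 held neither motif. Of 97 such windows (promoters) of 72 Kcn genes, 6 (6.19%) held the E-box on either strand, against 6.02% of 32851 promoters of the genome, and the genes with it were Kcnab1, Kcne4, Kcnh4, Kcnj2 and Kcnn4. The core motif was in 6 (6.19%) of the promoters of Kcn genes and in 14.02% of all promoters. The cyclic AMP motif TGACG or its complement CGTCA was in 16 (16.5%) and in 17.8% of all. These matches describe the letters in the window only.

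The table listed 97 of the 98 genes above 0 in at least 1 library, 81 at 1 FPKM or more in at least 1 library, 69 at a mean of 1 FPKM or more and 41 at a mean of 10 FPKM or more. Kcnk16 was listed at 0 throughout. Pore subunits of voltage-gated channels were the class most broadly present, with 35 of 40 at a mean of 1 FPKM or more. Kcnh3, a subunit of an EAG-like channel, had a mean of 53.3 FPKM, and Kcnd2, the main A-type subunit of striatal neurons, had 50.7. The auxiliary subunits held the highest single value, 140 FPKM for Kcnip2, and 126 for Kcnab1 and 92.1 for Kcnab2, which are cytoplasmic beta subunits of Kcna channels. Kcnip2 ran from 71.8 to 237 FPKM over the 66 libraries.

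Among the inward rectifiers, Kcnj4 led with 106 FPKM, Kcnj10, a glial channel that clears potassium, had 40.6 and Kcnj9, a subunit of the G protein-gated channel, had 20.6. Of the 15 inward rectifiers, 10 reached a mean of 1 FPKM. Among two-pore channels, Kcnk1 had 45.4, Kcnk2, which lipids and stretch open, 42.5 and Kcnk9 7.22 FPKM, and 8 of 14 reached 1 FPKM. Kcnmb4, the neuronal beta subunit of the large-conductance calcium-activated channel, had 60.2 FPKM, Kcnt1, a sodium-activated channel, 37.3 and Kcnma1, the large-conductance pore itself, 17.3. Of these 12, 7 reached 1 FPKM. Among the other transcripts, Kcnmb4os2 had 2.43 FPKM and Kcnd3os 0.810. Since the kit keeps strand but the counting is not stated, reads of these and of their host genes Kcnmb4 and Kcnd3 may not be separate.

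**Figure D1:**
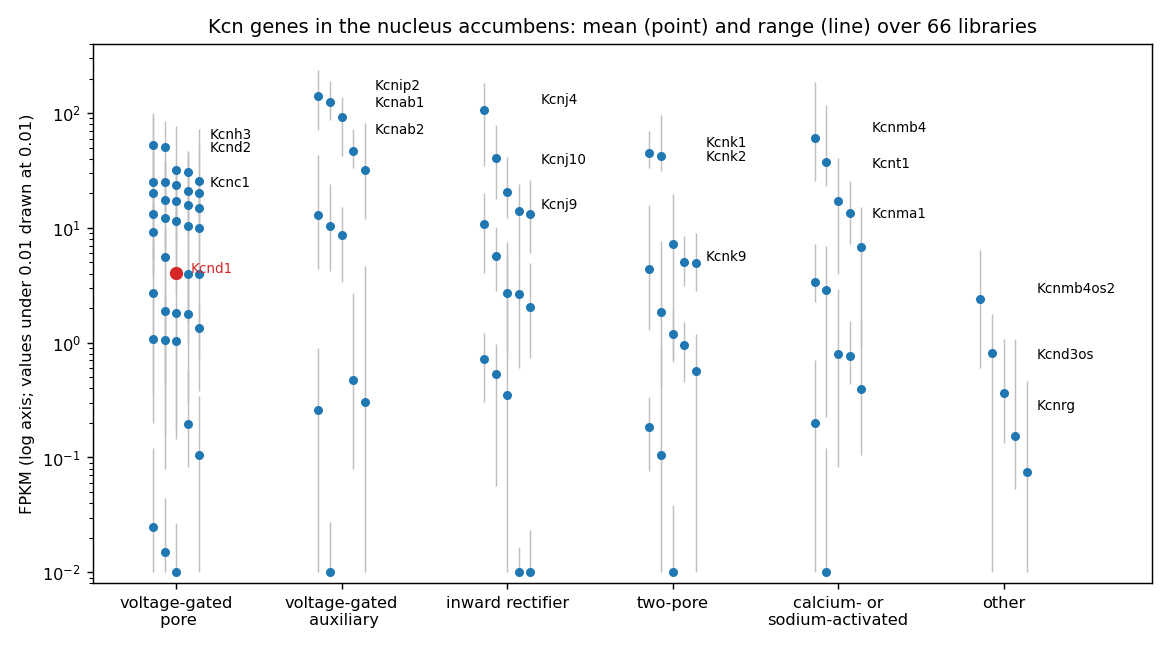
Mean FPKM (point) and range (line) of Kcn genes over 66 libraries on a log axis, with genes grouped by class, values under 0.01 drawn at 0.01 and high genes of each class named. Among the genes named are Kcnh3 (53.3), Kcnip2 (140), Kcnj4 (106), Kcnk1 (45.4), Kcnmb4 (60.2) and Kcnmb4os2 (2.43), and Kcnd1 lies at 4.02.

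The A-type channel genes differed widely in level. Kcnd1 (X chromosome, 7823759 to 7838278 on GRCm38.p6) averaged 4.02 FPKM over the 66 libraries, with a range of 2.75 to 9.18, and was the 51st of the 98 genes by mean. Kcnd2 averaged 50.7 FPKM, and Kcnd3, a subunit that also carries A-type current in interneurons and heart, averaged 10.1. Their Kcnip partners averaged 140 (Kcnip2), 46.7 (Kcnip3), 32.2 (Kcnip4) and 10.4 FPKM (Kcnip1). Dpp6 averaged 77.6 FPKM and Dpp10 25.7 FPKM. FPKM is set per length, so these levels can be compared between genes.

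At ZT3 the WT libraries were at 4.12, 3.82 and 4.13 FPKM. After saline they were at 4.90, 3.92 and 4.37 at ZT7, 4.14, 4.42 and 3.78 at ZT11, 4.21, 4.56 and 3.74 at ZT15, 3.21, 3.46 and 3.95 at ZT19, and 3.15, 4.23 and 4.43 at ZT23. Among the saline libraries the highest was at ZT7 and the lowest at ZT23. After cocaine the WT libraries were at 4.72, 5.32 and 4.50 at ZT7, 5.17, 4.64 and 4.95 at ZT11, 4.35, 3.90 and 9.18 at ZT15, 3.32, 3.11 and 3.22 at ZT19, and 3.81, 3.79 and 2.88 at ZT23. The value of 9.18 in replicate 3 at ZT15 stood far above the next library of that series, which was at 5.32. This library was also the one with the lowest summed FPKM and it held the highest value of 20 of the 69 genes of mean FPKM of at least 1. Its summed interneuron, astrocyte, microglia, endothelial and mural markers were each the lowest of the 66 libraries. Those of cortex and choroid plexus ranked 58th and 60th, and those of spiny neurons and oligodendrocytes 38th and 37th. The part of these cells in the values was not tested.

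In iMSN-D2RKO mice Kcnd1 was at 4.56, 3.97 and 4.00 FPKM at ZT3. After saline it was at 3.98, 3.53 and 4.06 at ZT7, 3.57, 4.00 and 4.33 at ZT11, 3.61, 3.08 and 4.11 at ZT15, 2.97, 4.22 and 3.26 at ZT19, and 3.32, 3.85 and 2.75 at ZT23. After cocaine it was at 4.41, 3.07 and 3.79 at ZT7, 4.17, 4.84 and 3.99 at ZT11, 3.96, 3.62 and 3.35 at ZT15, 3.90, 3.41 and 4.16 at ZT19, and 3.395, 4.70 and 3.99 at ZT23. Saline and cocaine libraries overlapped at every time point in iMSN-D2RKO mice. In WT mice the cocaine libraries lay above those of saline at ZT11 (log2 difference 0.21, unadjusted p = 0.17 by limma) and overlapped with them at the other times.

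**Figure D2:**
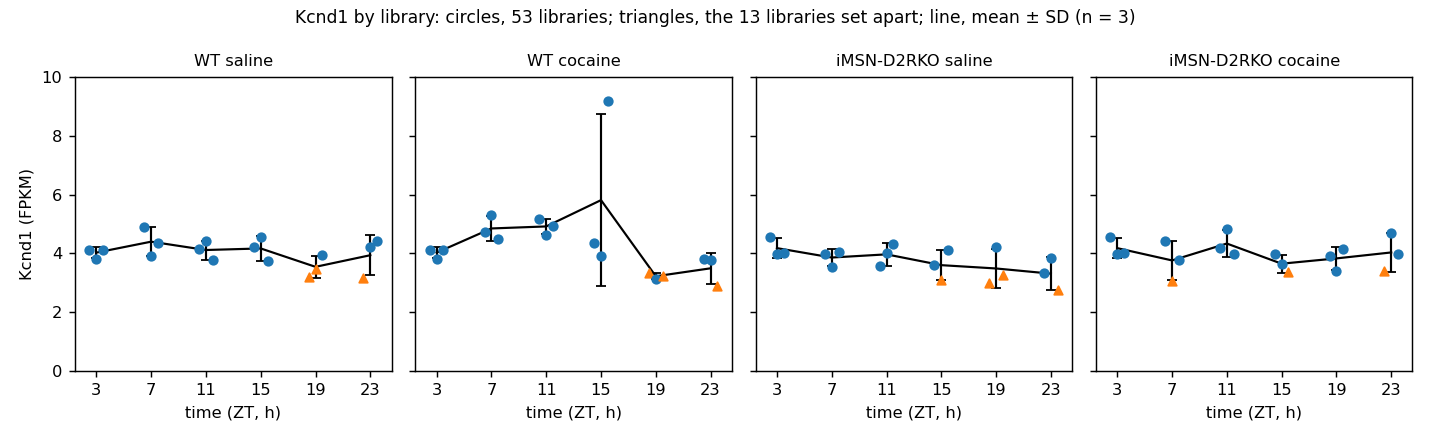
Kcnd1 FPKM in each library against time of day (ZT), in 1 panel per genotype and treatment with the ZT3 libraries in both treatments. Circles are the 53 other libraries, triangles the 13 set-apart libraries, and the line joins means ± SD (n = 3). The WT cocaine libraries lie at 4.50 or above at ZT7 and ZT11 and at or below 3.32 at ZT19, with 1 library at 9.18 at ZT15.

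Averaged over ZT7 to ZT23, Kcnd1 was 4.03 ± 0.50 FPKM after saline and 4.46 ± 1.52 after cocaine in WT mice, and 3.64 ± 0.49 and 3.92 ± 0.50 in iMSN-D2RKO mice (SD, n = 15 each). The difference of cocaine minus saline in WT mice was 0.08 on log2(FPKM + 1), with an SE of 0.08 and a 95% interval of -0.08 to 0.25, and an exact permutation test over the libraries within each time point gave p = 0.366. Without WT cocaine ZT15 replicate 3 the difference was 0.0152 and the exact permutation p was 0.732. iMSN-D2RKO minus WT was -0.12 after cocaine (exact permutation p = 0.234, two-sided) and -0.09 over ZT3 and saline (limma p = 0.076, adjusted 0.54). The -0.09 included the ZT3 libraries and the -0.12 left them out, so their gap is not the interaction. The interaction of genotype with cocaine was 0.00 with an SE of 0.10 and an interval of -0.21 to 0.21. Thus no difference in the level of Kcnd1 between treatments or genotypes passed its test.

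JTK_CYCLE, a rank test that asks whether values rise and fall as 1 cosine-like wave of 20 or 24 h, called Kcnd1 in the WT cocaine series (corrected p = 0.00253 by the exact null of that test, period 24 h, peak at ZT9, 16 libraries used). The test left out WT ZT3 replicate 2 (3.82) and cocaine ZT23 replicate 3 (2.88) as far from their pairs. In the other 3 series the corrected p was 1. The call held in 15 of 18 fits that left out 1 library, and it was lost without any of the 3 ZT19 cocaine libraries, with a corrected p of 0.0106 at the most. Of those 3 libraries, 2 were among the 13 that stood apart, and the other scored 22.51, the highest of the other 53. In the 13 libraries the log2 difference of Kcnd1 from the other libraries of their groups was -0.24, with 2.75 to 3.46 FPKM in the 13 and 3.11 to 9.18 in the other 53. Without the set-apart libraries the corrected p was 0.0318 and the gene was not called, while with the library score removed it was 0.00255. The call was also lost without the libraries numbered replicate 1 (corrected p = 0.0286 by the exact null), without ZT23 (0.0189) and without ZT19 (0.0702).

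The difference of wave shape was tested with limma, as a difference in a 24 h cosine and sine fitted to log2(FPKM + 1). The test of treatments in WT mice left out the shared ZT3 libraries, while those of genotypes included ZT3. Neither used ranks, a 20 h period or the Dixon filter, so the 9.18 FPKM library and the libraries dropped by JTK_CYCLE at other times stayed in. For WT cocaine against WT saline the test of Kcnd1 gave an adjusted p of 1 (0.16 before adjustment). For iMSN-D2RKO against WT after cocaine limma gave an adjusted p of 0.57 (0.034 before adjustment). By these tests the call of 1 series and its absence in another were not shown to differ. They are not the same contrast as the JTK_CYCLE call, so they do not show that the series are alike.

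Over the 22 group means, the Kcn genes most like Kcnd1 were Kcnh4, Kcnt1 and Kcnh3, with Pearson correlations of 0.885, 0.847 and 0.820 among 68 genes ranked. The points share libraries, and the correlations were 0.786, 0.740 and 0.642 without the set-apart libraries and 0.811, 0.765 and 0.774 without WT cocaine ZT15 replicate 3. Kcnip4 was least like Kcnd1, at -0.772. Kcnh4 and Kcnh3 are EAG-like channel subunits.

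The first level comparison asked whether cocaine changed Kcn genes in WT mice over ZT7 to ZT23. No gene of the 81 tested passed an adjusted p of 0.05 by limma, and no gene of all 14392 did (0.00%). At an unadjusted p under 0.05 there were 0 Kcn genes and 365 of all genes (2.54%). The smallest p-values were those of Kcna6, a delayed rectifier subunit (log2 difference -0.13, SE 0.06, unadjusted p = 0.058 by limma), Kcnj9 (-0.18, SE 0.10) and Kcng1 (0.11, SE 0.07). The median difference of the 81 genes was -0.02, against 0.00 for all genes.

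In iMSN-D2RKO mice cocaine also gave no call among 78 Kcn genes or 14238 genes (0.00%). At an unadjusted p under 0.05 there were 6 of the 78 Kcn genes, against 425 of 14238 genes (2.98%). Kcnj2, a strong inward rectifier, had a difference of 0.33 (SE 0.12, unadjusted p = 0.011 by limma). Its 3 values at ZT7 were 6.01, 8.11 and 11.2 FPKM after saline and 15.5, 15.2 and 13.5 after cocaine. The 6.01 was the lowest Kcnj2 value of the 66 libraries, and these saline libraries include replicate 1, the library of highest summed FPKM. Values at the other time points of this comparison are not shown. Kcnc4, a pore subunit of voltage-gated channels, had a difference of -0.29.

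The genotype comparison asked whether Kcn genes differ when D2R is absent from iMSNs. In WT mice at ZT3 and after saline Kcng1, a silent subunit that alters Kcnb channels, ran from 11.2 to 15.5 FPKM with a median of 12.9 (n = 18). In iMSN-D2RKO mice it ran from 7.002 to 15.1 with a median of 10.02 (n = 18). The means were 13.2 ± 1.21 and 10.5 ± 2.04 FPKM (SD), so the groups overlapped but most iMSN-D2RKO libraries were below the WT median. The log2 difference was -0.31 (SE 0.07), and Kcng1 was the 1 of 79 Kcn genes that passed (adjusted p = 0.043 by limma). Of all 14287 genes 27 passed (0.189%), 7 of them lower (0.0490%). The call held in 11 of 36 fits that left out 1 library, with adjusted p from 0.0079 to 0.0798 and differences from -0.34 to -0.29. It was lost when replicate number entered the fit as a block.

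Kcne1l (Kcne5 in RefSeq), an auxiliary subunit of voltage-gated channels, had a log2 difference of 0.29 (SE 0.07, adjusted p = 0.064 by limma), and Kcnj2 had a log2 difference of -0.32 (SE 0.09, adjusted p = 0.22). Without the set-apart libraries Kcng1 and Kcne1l passed, and with the library score as a covariate Kcnj2 passed as well. After cocaine Kcng1 was at 14.6 ± 3.26 in WT and 10.9 ± 1.81 FPKM in iMSN-D2RKO mice (n = 15 each), a log2 difference of -0.39 with an adjusted p of 0.24 by limma. The highest WT value, 22.6 FPKM, was that of WT cocaine ZT15 replicate 3, and the next highest of all libraries was 18.8. No Kcn gene of 81 passed after cocaine, where 7 of all genes did (0.0487%). Of the 81, 5 had an unadjusted p under 0.05, against 510 of 14382 genes (3.55%). None passed in the interaction, where 0 did (0.00%). At an unadjusted p under 0.05 the interaction held 1 of 81 Kcn genes and 213 of all genes (1.46%).

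**Figure D3:**
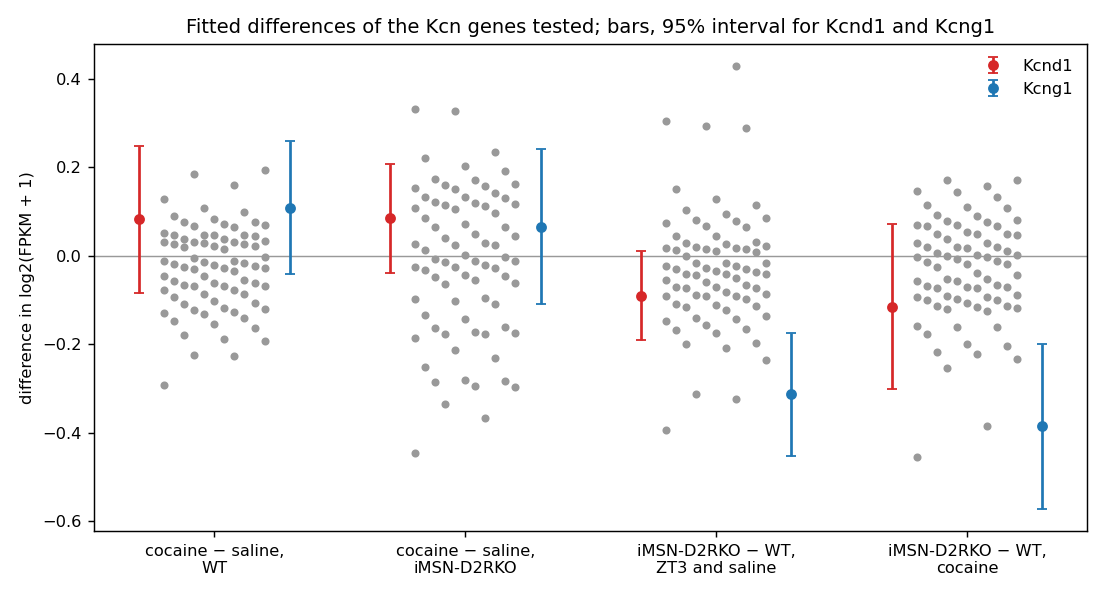
Log2 differences of the Kcn genes in the level comparisons, with each grey point 1 gene and bars giving the 95% interval for Kcnd1 (red) and Kcng1 (blue). Most lie within 0.4 of 0, and Kcng1 at -0.31 in iMSN-D2RKO against WT after saline is the 1 gene that passed.

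Cocaine was also compared with saline at each time point, with 3 libraries against 3 in limma. No Kcn gene passed in any of the 10 comparisons, in which 0 to 3 of all 14643 genes passed. The shares of all genes in WT mice were 0.00683% at ZT7 and at ZT15 and 0.0205% at ZT19, and in iMSN-D2RKO mice 0.0137% at ZT7, with 0.00% in the other 6. At ZT7 in iMSN-D2RKO mice Kcnmb4 had a log2 difference of -0.89 for cocaine minus saline (unadjusted p = 5.8e-04, adjusted p = 0.097 by limma), with 1 of the 3 saline libraries at 185 FPKM and the others at 79.0 and 66.2. That library was the one with the highest summed FPKM. In WT mice at ZT15 Kcnd1 had a log2 difference of 0.32 (unadjusted p = 0.040, adjusted p = 0.70 by limma) and Kcnt1 one of 0.52 (adjusted p = 0.59), with Kcnt1 at 49.1, 36.2 and 117 FPKM after cocaine and 43.5, 41.4 and 38.4 after saline. The value of 117 again came from replicate 3.

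Time of day was tested over all 66 libraries. It changed 26 of 81 Kcn genes (32.1%) at an adjusted p of 0.05 by limma, against 7304 of 14643 genes (49.9%). After ZT3, time of day and hours since injection cannot be told apart. The ratio of the highest to the lowest time mean ran from 1.23 for Kcnd1 to 2.40 for Kcnk7, with a median of 1.53. Of the 26 genes 13 were lowest at ZT19, the time at which 6 of the 13 set-apart libraries were taken. The highest time mean was at ZT15 for 9 of them, but for 3 without WT cocaine ZT15 replicate 3, the library of lowest summed FPKM. Without it 9 were highest at ZT11, 13 were still lowest at ZT19, and Kcnj4 and Kcnh5 no longer passed (adjusted p = 0.054 and 0.071 by limma).

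Voltage-gated pore subunits gave 13 of the 26 calls, of 35 tested. Kcna4, an A-type channel of axons, had its lowest time mean, 15.3 FPKM, at ZT3 and its highest, 22.8, at ZT15 (adjusted p = 0.0020 by limma). The same library held 45.4 FPKM of Kcna4, and without it the ZT15 mean was 20.7 and the highest was 22.4 at ZT19. Kcnh1, an EAG channel, was lowest at ZT19 with 11.2 FPKM (adjusted p = 0.0042 by limma). Its mean was 15.1 at ZT15, or 14.1 without that library, and 14.8 at ZT11. Kcnh4 was at 12.2 at ZT19 and 18.9 at ZT15 (adjusted p = 0.0063), where 1 value of 51.4 came from that library and the mean without it was 15.9, below the 16.5 at ZT11. The silent subunit Kcng3 had 1.25 at ZT19 and 2.83 at ZT15, or 1.93 without the library, in which it was at 12.7. Kcnh3 was highest at ZT11 with 61.0 and lowest at ZT19 with 40.1. All of these passed for time of day without that library as well, with adjusted p from 6.1e-04 to 0.019 by limma. Kcnd1 was highest at ZT11 with 4.33 and lowest at ZT19 with 3.52 (adjusted p = 0.037).

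Of 10 auxiliary subunits, Kcnip4 passed, with 48.4 FPKM at ZT19 and 23.4 at ZT11. Without the set-apart libraries its ratio fell from 2.07 to 1.35. Of 12 inward rectifiers, Kcnj4, Kcnj8, Kcnj11 and Kcnj14 passed, and Kcnj4 was at 122 at its highest and 77.4 FPKM at ZT19. Without the set-apart libraries the Kcnj4 mean was 110.4 at ZT19, near the 110.2 at ZT3, and its highest was 135.7 at ZT23. Of 10 two-pore channels, Kcnk7, Kcnk12 and Kcnk13 passed, and the mean of Kcnk12 was 7.64 at ZT3 and 3.49 at ZT23. That ZT3 mean holds iMSN-D2RKO ZT3 replicate 2, in which Kcnk12 was at 15.96 FPKM, while the next highest of all libraries was 8.40. Without ZT3, Kcnk12 no longer passed. Of 10 calcium- or sodium-activated genes, Kcnn2, Kcnn3, Kcnt1 and Kcnt2 passed, with Kcnn2 at 16.1 FPKM at ZT19 and 9.98 at ZT3. Kcnt1 was lowest at ZT19 with 31.1 and had 45.0 at ZT15, or 38.5 without the library of 117 FPKM, below the 39.8 at ZT11. Kcnd3os passed among the 4 other transcripts tested.

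Without the 13 set-apart libraries 7 of 81 Kcn genes passed, against 3360 of 14438 genes (23.3%). Of these, Kcnb2, Kcng3, Kcnh1, Kcnj14, Kcnk7 and Kcnn2 also passed with all libraries, and Kcnf1 did not. Kcnk7 was listed below 1 FPKM in most libraries. Among channel and pacemaker genes outside the rule, 5 of 14 tested passed for time of day, among them Abcc8, Dpp10, Lgi1 and Lrrc55.

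**Figure D4:**
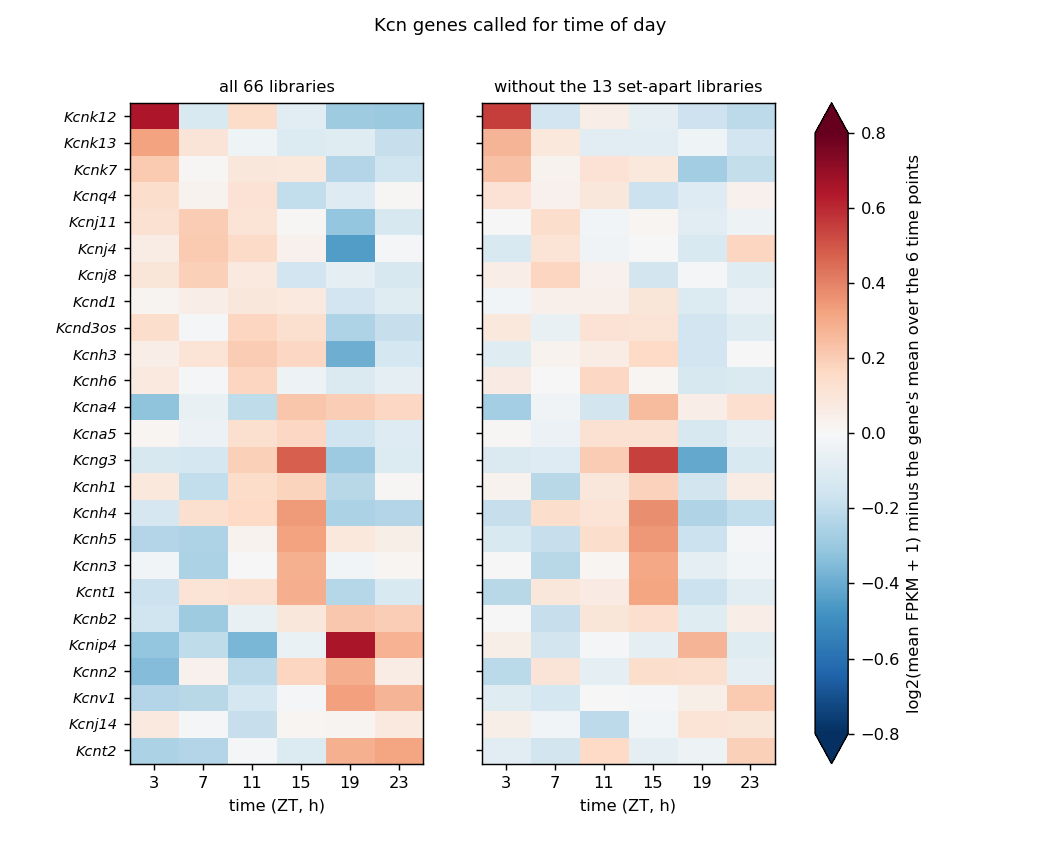
Heat map of Kcn genes called for time of day, with colour giving log2(mean FPKM + 1) at each time (ZT) minus the gene's mean over the 6 times, for all 66 libraries on the left and without the 13 set-apart libraries on the right. With all libraries many of the genes shown are lowest at ZT19, and the highest Kcnip4 value at ZT19 is smaller on the right.

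JTK_CYCLE was then run in each series. In WT saline it called 4 of 77 Kcn genes (5.19%), against 9.81% of all genes. Kcna4 had a corrected p of 0.00533 with a peak at ZT20, and Kcnj11, the pore of the ATP-sensitive channel, had 0.00533 with a peak at ZT9. Kcna4 was at 16.4, 12.7 and 18.5 FPKM at ZT3, 16.5, 12.4 and 16.2 at ZT7, 22.8, 18.2 and 14.9 at ZT11, 21.7, 17.9 and 20.5 at ZT15, 25.9, 22.999 and 22.1 at ZT19, and 24.2, 21.6 and 20.3 at ZT23. The ZT19 libraries lay above all of those at ZT3 and ZT7. Kcnj11 was at 16.6, 20.5 and 18.3 at ZT7 and at 10.2, 9.67 and 12.7 at ZT19. Kcnh6 had a corrected p of 0.00622 and Kcnn3, a small-conductance calcium-activated channel, 0.00745, both with a period of 20 h.

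In WT cocaine 3 of 80 Kcn genes were called (3.75%), against 7.61% of all genes. Besides Kcnd1 these were, by the exact null of the test, Kcnt1 (corrected p = 0.00372, peak at ZT11) and Kcnj12, an inward rectifier (corrected p = 0.00755, peak at ZT11), both with a period of 20 h. Kcnt1 was at 31.9, 29.4 and 30.1 FPKM at ZT3, 44.1, 47.7 and 39.6 at ZT7, 42.6, 47.7 and 42.8 at ZT11, 49.1, 36.2 and 117 at ZT15, 24.4, 23.03 and 31.1 at ZT19, and 35.3, 37.2 and 28.8 at ZT23. All 6 libraries at ZT7 and ZT11 lay above those at ZT3, ZT19 and ZT23. Kcnj12 was at 9.55, 6.72 and 5.03 FPKM at ZT11 and at 3.31, 4.07 and 3.48 at ZT19. In iMSN-D2RKO saline 2 of 78 were called (2.56%), against 2.58%, and these were, by the exact null, Kcnt1 (corrected p = 0.00339, peak at ZT9) and Kcnh5 (0.00945, peak at ZT19). In iMSN-D2RKO cocaine 1 of 75 was called (1.33%), against 1.10%, which was Kcnh6 (0.00507, peak at ZT5). Leaving out 1 library at a time lost the call in 5 of 18 fits for Kcna4, 10 for Kcnj11, 12 for Kcnh6 and 11 for Kcnn3 in WT saline. In WT cocaine it lost 6 for Kcnt1 and 14 for Kcnj12, in iMSN-D2RKO saline 4 for Kcnt1 and 14 for Kcnh5, and in iMSN-D2RKO cocaine 11 for Kcnh6. Without the set-apart libraries the counts were 0, 0, 1 (Kcne4) and 1 (Kcnh6) in the order above, against 6.37%, 2.36%, 1.21% and 1.91% of all genes. No Kcn gene passed the difference of wave shape between treatments in WT mice or between genotypes after saline or cocaine, and 0 of all genes did (0.00%). At an unadjusted p under 0.05 limma gave 1 of 81, 3 of 79 and 7 of 81 Kcn genes, against 1.38%, 2.48% and 6.21% of all genes.

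The set-apart libraries differed from the others of their groups in some Kcn genes. Of 81 genes, 9 were higher and 9 lower by more than 0.5 on the log2 scale. Both were smaller shares than the 19.3% and 14.5% of all genes. These are descriptions, since the 13 libraries were chosen from the same values. Kcnip4 had a median of 67.8 FPKM in them and 22.2 in the others, and its range was 53.5 to 82.7 against 12.1 to 55.8. Kcnj4 had 44.1 and 121.6, with ranges of 34.3 to 52.4 and 52.4 to 181. Higher with Kcnip4 were Kcnh7, Kcnma1, Kcnt2, Kcnb2, Kcnv1, Kcnn2, Kcnd2 and Kcnh5, by 0.58 to 0.97. Lower with Kcnj4 were Kcnh3, Kcnab2, Kcnj11, Kcnip2, Kcns1, Kcnc1, Kcnj12 and Kcnf1, and for Kcnh3 the difference was -0.93. The genes that were higher had a median span of 436.8 kb and those that were lower 24.08 kb. Over the 81 genes the rank correlation of the difference with genomic span was 0.45, and over 13769 genes it was 0.42. The points share libraries and no test was made. The summed FPKM of astrocyte markers had a median of 351 in the set-apart libraries (range 283 to 370.0) and 225 in the others (157 to 388). Those of interneuron markers were 1552 and 1140, of spiny neuron markers 4811 and 4167, of oligodendrocyte markers 2224 and 2810 and of endothelial markers 106 and 90.3. The part of these cell types in the result was not tested.

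**Figure D5:**
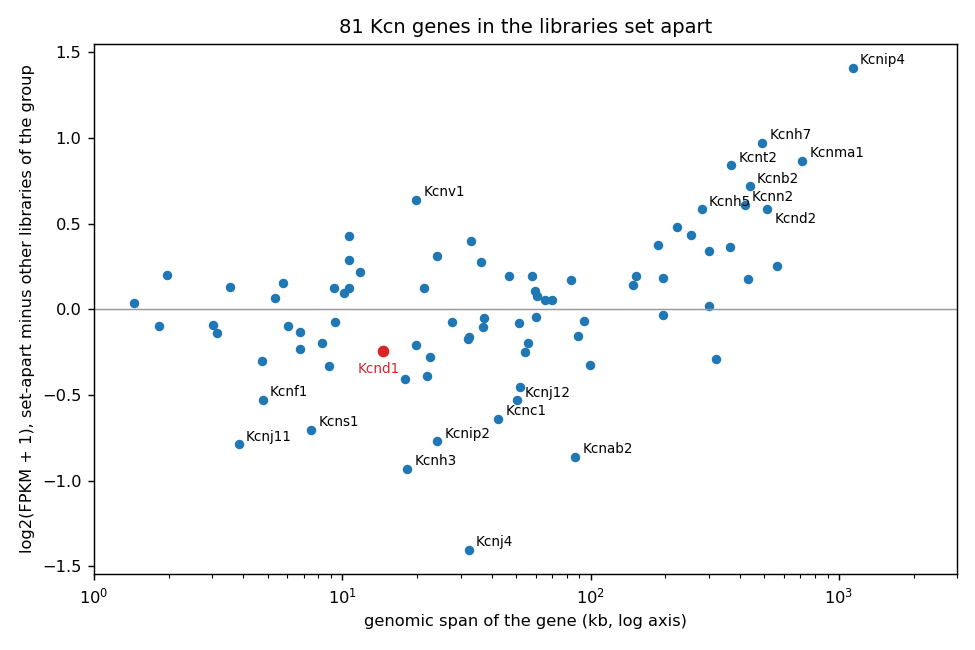
Log2 difference of the set-apart libraries from the others of their groups against genomic span (kb, log axis), with each point 1 of 81 Kcn genes, Kcnd1 in red and those past 0.5 named. Longer genes lie higher, with Kcnip4 at 1.41 and Kcnj4 at -1.40, and the rank correlation over 81 genes is 0.45.

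Kcnj13 and Kcne2, channel subunits of the choroid plexus, were at 7.48 and 4.62 FPKM in iMSN-D2RKO saline ZT11 replicate 1, at 5.05 and 4.55 in ZT19 replicate 1 of the same series, and at 2.65 and 1.96 in WT cocaine ZT11 replicate 1. In the other 63 libraries their medians were 0.060 and 0.096, with highest values of 1.37 and 0.929. The summed choroid plexus markers were 1138, 499 and 332 FPKM in the 3 libraries, against a median of 9.28 in the other 63. The next highest sum was 246 in iMSN-D2RKO saline ZT15 replicate 1, with Kcnj13 at 1.37 and Kcne2 at 0.929. In iMSN-D2RKO ZT3 replicate 3 the sum was 176, with Kcnj13 at 0.887 and Kcne2 at 0.505. The library of iMSN-D2RKO ZT3 replicate 2 held the highest value of 11 Kcn genes, among them Kcnc1 and Kcnc2, fast delayed rectifiers of fast-spiking neurons. Pvalb, a marker of these neurons, was at 166 FPKM in it, 3rd of the 66 libraries, against a median of 24.9. The other interneuron markers were not high in this library, with Chat 38th, Sst 48th, Kit 61st and Npy 64th. Its sum of all interneuron markers, of which Sst and Npy make up the most, was 36th, and its sum of spiny neuron markers was 64th. Its sums of oligodendrocyte, endothelial and mural markers were 3rd, 3rd and 2nd. Those of cortex and choroid plexus markers were 10th and 11th, and those of astrocyte and microglia markers 43rd and 50th. The part of these cells in the result was not tested.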

How the data were processed

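RNA was sequenced from NAcc punches of 66 libraries in 22 groups of 3. Per the labels, base calling used CASAVA 1.8.2, reads were aligned to mm10 with Bowtie (within TopHat, per the study's methods), and the authors made FPKM values with Cufflinks tools ending in Cuffnorm. The annotation release, the Cuffnorm option and the use of strand in counting are not given in the sources used here. The deposited FPKM table has 24138 rows and 72 columns, of which 6 repeat the ZT3 values of the other treatment and were left out. No counts were used, so depth is unknown.

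FPKM values were put on a log2 scale with a pseudocount of 1, which understates differences of low genes, and were tested with limma (3.58.1, R 4.3.3) with a mean-variance trend. Genes tested were those at 1 FPKM or more in at least 1 compared library, with p-values adjusted by Benjamini-Hochberg across the whole of them and called under 0.05. JTK_CYCLE was written in Python 3.11.15 with numpy 2.4.6 and pandas 2.3.3, with periods of 20 and 24 h (11 pairs of period and phase), Bonferroni correction and a threshold of 0.01, after a Dixon filter (critical value 0.97) that drops no more than 1 replicate of a group. The order in which ties are ranked was settled on the WT saline listing of the study. The exact permutation test of Kcnd1 used 3200000 arrangements within time points. Scripts were tested on simulated data.

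Kcn genes and lists were chosen with earlier results of these data known. Named genes were Kcnd1 and its complex, the 3 of highest mean in each class, every gene called, the 3 of smallest p in each test (time points in part) and the 3 most like Kcnd1. Some of the genes this rule picks are not reported here. Promoters came from RefSeq tables on GRCm38.p6, and overlapping genes were looked up in a GENCODE annotation. Alternatives were another pseudocount (0.1), no filter, scaling by size factors, libraries, replicates or time points left out, a library score and a replicate block. Leaving out single libraries and the libraries of highest and lowest summed FPKM was chosen after seeing the data. The labels do not say what libraries of the same replicate number share, and they were not taken as pairs.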

Additional observations from a re-analysis of the deposited data

How the results depend on the processing

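Kcn genes called in iMSN-D2RKO against WT after saline numbered 1. The count became 2 when the set-apart libraries were dropped, 3 with the library score as a covariate, 0 with the replicate block, 0 to 0 without a replicate number and 0 without iMSN-D2RKO saline ZT7 replicate 1. Over 21 pairs of groups, libraries of the same number had a mean correlation of -0.056 and others 0.042. Single correlations of the same number ran from -0.771 to 0.6505, so these means cannot exclude a shared batch in some groups. All 3 same-numbered correlations were over 0.1 in 3 of these pairs, each of them WT with iMSN-D2RKO libraries, and with the block Kcng1 had an adjusted p of 0.062 by limma at the same difference of -0.31. The block changed no other count of Kcn genes by over 1.5 times. At single time points the count was 0. It was 9 when the set-apart libraries were dropped, all of them at ZT19 in WT mice, where 1 library was left in each arm and was assumed to vary like the other groups. It was 0 to 4 without a replicate number, and the 4 were Kcnj2, Kcnk12, Kcnmb4 and Kcnn1 at ZT7 in iMSN-D2RKO mice. Time of day gave 26 Kcn genes, and 7 without the set-apart libraries, 15 with the library score, 11 without ZT11, 14 without ZT19 and 1 to 26 without a replicate number.

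Rhythmic Kcn genes in WT saline numbered 4. They were 10 at a corrected p under 0.05, 0 without the set-apart libraries, 1 with the library score removed, 2 with size factor scaling, 7 without ZT7, 1 without ZT15, 2 without ZT23 and 0 to 7 without a replicate or library. In WT cocaine they numbered 3. They were 1 with the 24 h period only, 7 at a corrected p under 0.05, 0 without the set-apart libraries, 6 with the score removed, 1 without ZT3, 5 without ZT11, 6 without ZT15, 0 without ZT19, 1 without ZT23 and 0 to 4 without a replicate or library. In iMSN-D2RKO saline they numbered 2. They were 1 without the set-apart libraries, 0 with the score removed, 0 with scaling, 0 without ZT3, 1 without ZT7, 0 without ZT11, 0 without ZT15, 1 without ZT19 and 0 to 4 without a replicate or library, with 0 without iMSN-D2RKO saline ZT7 replicate 1. In iMSN-D2RKO cocaine they numbered 1. They were 3 at a corrected p under 0.05, 0 with scaling, 2 without ZT11, 0 without ZT15, ZT19 or ZT23 and 0 to 1 without a replicate or library.

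Counts over all genes moved too. After saline the genotypes differed in 27 genes, with 47 after dropping the set-apart libraries, 136 with the score and 7 to 11 without a replicate number. After cocaine they differed in 7, with 14, 25 and as few as 0. Single time points gave 7, with 3 at the other pseudocount, 21 with no filter, 1530 after dropping the set-apart libraries, 48 with the score, 11 without iMSN-D2RKO saline ZT7 replicate 1 and 1 to 1330 without a replicate number. Time of day gave 7304, with 3360 after dropping the set-apart libraries, 3737 without ZT11, 4145 without ZT19 and as few as 1663 without a replicate number. Rhythmic genes ranged over the settings from 204 to 3304 in WT saline (1367 as reported), from 212 to 2779 in WT cocaine (1086), from 80 to 1602 in iMSN-D2RKO saline (365) and from 56 to 580 in iMSN-D2RKO cocaine (153).

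The difference of Kcnd1 changed sign in comparisons where it had passed no test. For cocaine minus saline in WT mice without a replicate number it ran from -0.0049 to 0.199 at ZT7, from -0.0711 to 0.573 at ZT15 and from -0.306 to 0.0417 at ZT23, and it was -0.00999 at ZT15 without the 1 cocaine library of 9.18 FPKM. In iMSN-D2RKO mice it was 0.0699 at ZT7 without the set-apart libraries, 0.0592 with the library score and -0.118 to 0.0209 without a replicate number. At ZT15 it was -0.0180 without the set-apart libraries, -0.0618 to 0.145 without a replicate number, and at ZT19 it was -0.117 in the 53 other libraries and -0.0115 with the score. The interaction was -0.0339 without the set-apart libraries, -0.0053 with the score, -0.0227 to 0.0696 without a replicate number or a single library. Of the other values for single genes, 597 kept their side of the threshold and 241 lost it. The cause was not tested.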
